A study of Mus musculus with 123 samples.

Results

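The regions described here carried a peak in 2 deposited lists of histone H3 lysine 4 methylation in mouse embryonic stem cells, ES1 and ES2, and no peak in the third, ES3. They were chosen by merging touching or overlapping peaks of the 3 lists on chromosomes 1 to 19 into union regions. A union region was kept when it held an ES1 peak and an ES2 peak, no ES3 peak, and no single peak of 10000 bp or wider. This gave 7371 of 30974 union regions (23.8%), called ES3-lacking regions below. Presence in the lists is what chose them, so the absence of ES3 is a description and not a result.

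The series profiled single mouse cells in droplets, where the chromatin of each cell receives a barcode before immunoprecipitation of the pooled cells. Of its 123 libraries, 86 were immunoprecipitated for H3K4me2 and 37 for H3K4me3. The cells were V6.5 embryonic stem cells grown with serum and LIF, purchased embryonic fibroblasts (Globalstem) and the blood progenitor line EML. Stem cells and fibroblasts were run alone or together with a second kind of cell, and EML only together with one. No label ties ES1, ES2 or ES3 to a library, a mark, a treatment or a number of cells, and how cells were assigned to a list is not stated in the labels used here. All 3 are read as sets of stem cells from their names. There is 1 list per name and no replicate, so no difference between lists was tested, and intervals below cover counting error only.

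Methylation of lysine 4 on histone H3 marks the start sites of active and poised genes in its trimethylated form, and both start sites and enhancers in its dimethylated form. Embryonic stem cells grown with serum and LIF are known to be a mixture of states that differ in pluripotency factors. Regions marked in some sets of stem cells and not in another are where such states could differ. The comparison asks how the regions missing from ES3 look in the lists that hold them, and where they lie. The coordinates are mm9. The genes and the sequence at these regions were not analysed here.

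The ES3-lacking regions were narrow in both lists. The ES1 peaks of a region covered a median of 1679 bp (quartiles 1024.5 to 2619.5 bp) and its ES2 peaks a median of 1571 bp (953 to 2226 bp). In regions called in all 3 lists, under the same limit on width, the medians were 2599 bp in ES1 and 2176 bp in ES2. They were 1176.5 bp in regions called in ES1 alone and 1032 bp in regions called in ES2 alone. The ES3-lacking regions thus lay between both kinds in width. An ES1 width of at least 5 kb was found in 428 of them (5.81%), against 19.5% of regions in all 3 lists. In ES2 the numbers were 176 regions (2.39%) and 12.0%. Regions of a list are not replicates of each other, so no test was run between kinds of region.

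The number of reads behind the regions stood in the same order. Reads were recovered from the authors' score, which covers the inner interval of a peak. That interval starts at the start of the peak and can end before the peak does, so reads past its end are not counted. It was the whole peak in 57.7% of the ES3-lacking regions in ES1 and 64.1% in ES2. In regions of all 3 lists this held for 48.6% and 54.8%, and in regions of 1 list alone for 70.4% in ES1 and 74.9% in ES2. The reads below thus count unlike parts of the peaks. The median ES3-lacking region held 16 reads in ES1 (quartiles 12 to 22, range 8 to 124) and 15 reads in ES2 (12 to 20, range 8 to 90). Regions in all 3 lists held 22 and 20 reads, and regions in 1 list alone held 13 reads in ES1 and 13 in ES2. The fewest reads found behind any peak of their chromosome and list lay behind 3.49% of the ES3-lacking regions in ES1 and 4.33% in ES2. In regions of all 3 lists this held for 190 of 7611 in ES1 and 225 of 7611 (2.96%) in ES2. The share was 7.56% for regions in ES1 alone and 7.39% for regions in ES2 alone. Within 2 reads of the fewest were 18.0% of the ES3-lacking regions in ES1 and 19.9% in ES2, against 11.2% and 12.7% in all 3 lists. At the other end, 247 ES3-lacking regions (3.35%) held at least 30 reads in each list, against 14.4% of the regions in all 3 lists.

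**Figure D1:**
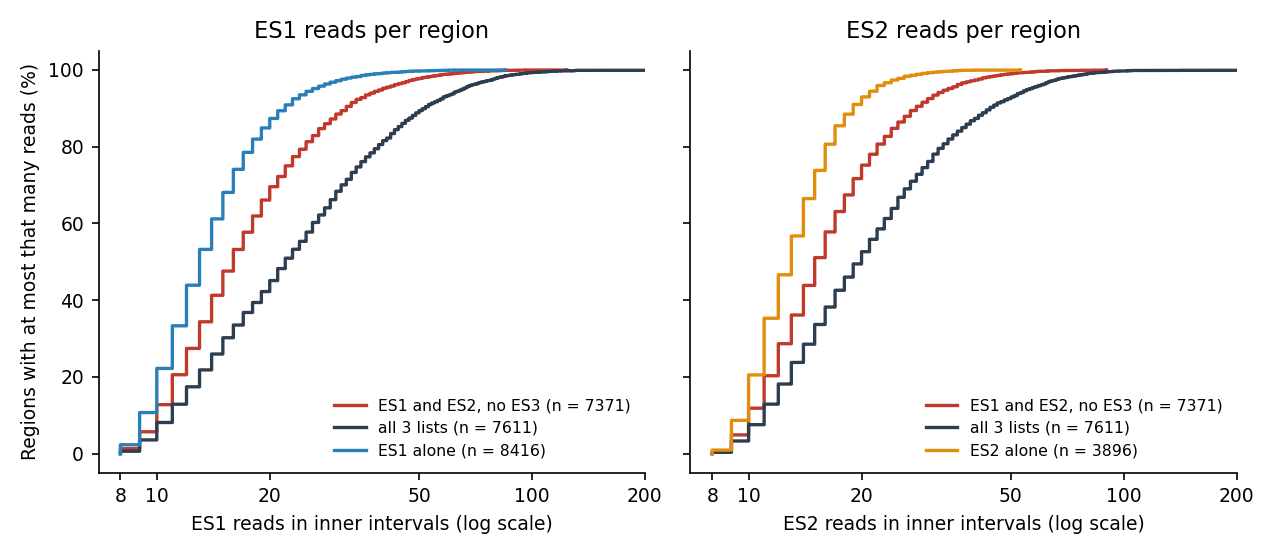
Cumulative share of regions (y axis, percent) by reads in the inner intervals of ES1 (left) and ES2 (right), on a log x axis that leaves out the few regions with the most reads, with 1 line for each combination of lists. The line of the 7371 ES3-lacking regions runs between the regions called in all 3 lists, with medians of 22 reads in ES1 and 20 in ES2, and the regions called in 1 list alone, with medians of 13.

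Median read density differed little between the kinds of region. The authors' score, which follows the read density of the inner interval relative to the chromosome, had a median of 14.5 in ES1 and 12.6 in ES2. In regions of all 3 lists it was 14.9 and 12.8, and in regions of 1 list alone 14.7 in ES1 and 13.7 in ES2. Per kb of inner interval the ES3-lacking regions held a median of 14.2 reads in ES1 and 13.7 in ES2, against 14.4 and 13.6 in regions of all 3 lists. These medians differ far less than the spread within each kind, whose quartiles in the ES3-lacking regions were 10.7 and 19.9 reads per kb in ES1.

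Of the 14982 regions with an ES1 and an ES2 peak under the width limit, 49.2% (95% interval 48.4 to 50.0) had no ES3 peak. That share fell with the reads in ES1 plus ES2 above 29 reads. Up to 19 reads it was 64.2% (56.8 to 71.0) and at 20 to 24 reads 67.0% (64.6 to 69.3). At 25 to 29 reads it was 66.9% (65.0 to 68.7) and at 30 to 39 reads 57.9% (56.4 to 59.5). At 50 to 74 reads it was 31.4% (29.7 to 33.2), and with 100 reads or more 10.9% (8.49 to 13.8), or 62 of 567 regions. Regions with many reads were also wider, with a median span of 1804.5 bp at 25 to 29 reads and 7789 bp at 100 or more. Among regions with a span from 2000 bp to under 3000 bp alone, the share still fell, from 65.5% (61.6 to 69.4) at 25 to 29 reads to 31.2% (27.2 to 35.4) at 50 to 74. Span runs over the peaks of all lists, so this range does not match regions with and without ES3 in ES1 and ES2 width. Below 25 reads this narrow range of spans gave 55.5% at 20 to 24 reads and 37.5% up to 19, so the share did not fall steadily over the whole range.

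The share by span ran from 80.3% (77.6 to 82.8) under 1000 bp to 14.4% (11.8 to 17.4) at 8000 bp or more. Span runs over the peaks of all lists, so an ES3 peak can lengthen the regions that hold one and not the ES3-lacking ones. The fall with span is therefore not independent of the rule that chose the regions. By the lower of both scores the share fell over the lower scores and then moved both ways. It was 60.5% (55.3 to 65.6) below a score of 7, 52.8% (51.01 to 54.55) from 7, 48.4% (46.8 to 50.1) from 9 and 45.8% (43.8 to 47.7) from 11. From 13 it was 47.3% (45.3 to 49.3), from 16 51.7% (49.3 to 54.1) and at 20 or more 46.2% (43.1 to 49.2). When only peaks whose inner interval is the whole peak were counted, so that all reads of the peak are known, the share without ES3 was 76.2% (72.9 to 79.2) at 25 to 29 reads and 15.5% (11.0 to 20.9) at 100 or more.

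**Figure D2:**
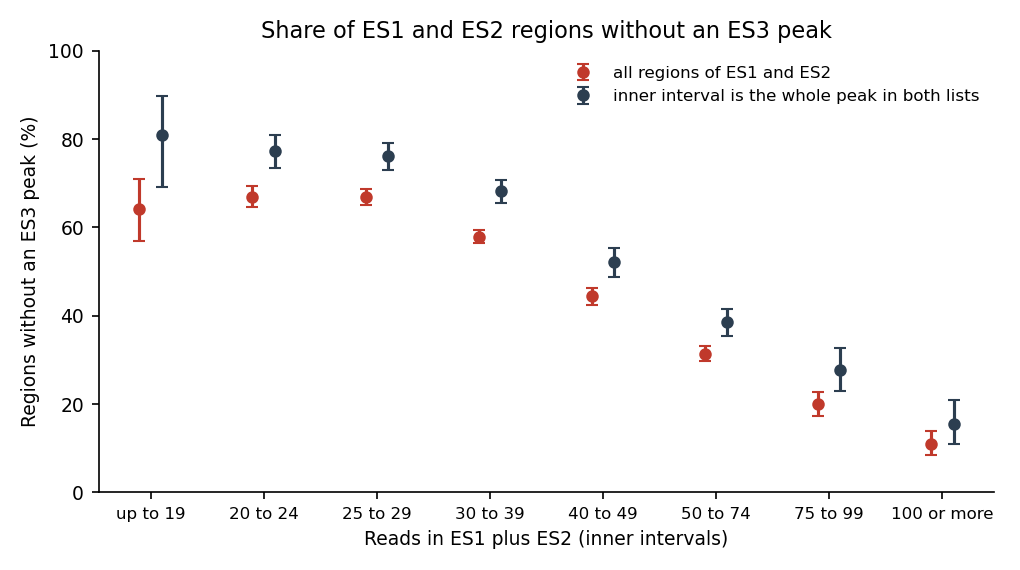
Share of regions with an ES1 and an ES2 peak that had no ES3 peak (y axis, percent) by reads in ES1 plus ES2 (x axis), for all such regions (red) and for those whose inner intervals are the whole peaks (dark). Points are shares and bars exact binomial 95% intervals. Red points fall from 66.9% at 25 to 29 reads to 10.9% at 100 or more.

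The level of ES3 inside these regions is unknown, since ES3 values come with peaks only, and a missing peak does not show an unmarked region. ES3 rested on 2439853 reads, about as many as ES1 with 2441443 and fewer than ES2 with 2717742. Of these reads 8.86% lay in the inner intervals of ES3 peaks, against 22.9% in ES1 and 15.9% in ES2. The fewest reads behind a peak ranged over the autosomes from 8 to 10 in each list. The part that the lower share of ES3 reads in peaks has in the absence of ES3 peaks was not tested. List length bears on the count itself. With ES1 and ES2 shortened to the 12391 peaks that ES3 holds, by highest score, 2388 of 23597 union regions (10.1%) had ES1 and ES2 without ES3. Shortened by most reads, there were 2283 of 20741 (11.0%). With the lists as deposited the share was 23.8%.

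A small set held many reads in both lists. At least 50 reads in ES1 and at least 50 in ES2 were found in 26 ES3-lacking regions (0.353%), spread over 16 chromosomes, against 3.35% of the regions in all 3 lists. They spanned 5166 to 11459 bp with a median of 8018 bp. The nearest ES3 peak lay 1078 to 48161 bp away, with a median of 9954 bp. ES1 was the denser list in 19 of the 26 after division by the list totals. The median ES2 to ES1 ratio of reads per kb was -0.27 on the log2 scale in these 26. It was -0.19 over all ES3-lacking regions and -0.21 over all 14982 regions with both lists, so a lean to ES1 is not particular to the 26.

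The most reads in sum lay at chromosome 15, 12132199 to 12141257. ES1 held 96 reads there (95% Poisson interval 77.8 to 117) over 8418 bp, and ES2 held 90 (72.4 to 111) over 9058 bp. Both lists covered 92.9% of the bases that either covered, and the nearest ES3 peak was 7729 bp away. At chromosome 2, 157212474 to 157223776, ES1 held 92 reads (74.2 to 113) and ES2 90 (72.4 to 111), and an ES3 peak lay only 1078 bp outside. At chromosome 11, 78900231 to 78910179, ES1 had 93 reads (75.1 to 114) over 9736 bp and ES2 had 78 (61.7 to 97.3) over 7248 bp. The nearest ES3 peak was 48161 bp from that region, the farthest of the 26. In these 3 regions the ES1 and ES2 intervals overlap. At chromosome 4, 132901749 to 132909877, ES1 held 89 reads (71.5 to 110) and ES2 68 (52.8 to 86.2), in 1 ES1 peak and 2 ES2 peaks.

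Some wide regions were less evenly counted. Chromosome 4, 130264261 to 130276698, spanned 12438 bp and held 124 reads (103 to 148) in ES1, the most of any ES3-lacking region. ES2 held 29 reads there (19.4 to 41.6), counted over an inner interval of 2353 bp against 11581 bp in ES1. Per kb both were close, with 10.7 reads in ES1 and 12.3 in ES2. The widest region, chromosome 14, 79982359 to 79994887, spanned 12529 bp with 2 peaks in each list, which held 23 ES1 reads (14.6 to 34.5) and 40 ES2 reads (28.6 to 54.5). Chromosome 15, 100072280 to 100083738, spanned 11459 bp. It held 81 ES1 reads (64.3 to 101) and 63 ES2 reads (48.4 to 80.6). Chromosome 2, 180432968 to 180443487, spanned 10520 bp, and only 3271 bp in ES1 and 2523 bp in ES2 were counted, with 31 (21.1 to 44.0) and 27 reads (17.8 to 39.3).

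Other regions were compact and dense. The highest score that both lists reached was at chromosome 7, 30577744 to 30578494, a span of 751 bp. It held 17 reads (9.90 to 27.2) over 500 bp in ES1 and 19 (11.4 to 29.7) over 508 bp in ES2, with scores of 36.1 and 36.5. Chromosome 13, 23829971 to 23831117, held 17 reads in each list over inner intervals of 501 bp, and lay 1818 bp from an ES3 peak. Chromosome 1, 174420099 to 174420811, held 14 ES1 reads (7.65 to 23.5) and 19 ES2 reads (11.4 to 29.7). Chromosome 16, 38254011 to 38254535, held 17 and 16 reads over 500 bp and lay 118967 bp from ES3. A different shape was seen at chromosome 14, 122848937 to 122853348, where the ES1 peak was 4412 bp wide and the ES2 peak 1155 bp. The scores of these 5 regions were 34.8 to 40.5 in ES1 and 33.7 to 40.7 in ES2, against medians of 14.5 and 12.6 over the ES3-lacking regions.

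ES1 and ES2 had similar read densities over the ES3-lacking regions. After division by the list totals the median ES2 to ES1 ratio of reads per kb was 0.875, or -0.19 on the log2 scale (95% interval of the median -0.21 to -0.17). In regions of all 3 lists it was -0.23 (-0.25 to -0.21). ES1 exceeded ES2 by at least 2-fold in 778 ES3-lacking regions (10.6%), against 10.3% of all 14982 regions with both lists. ES2 exceeded ES1 by at least 2-fold in 217 (2.94%), against 2.71% of all. Both shares are near those of all regions with both lists, and say nothing about the ES3-lacking regions alone. Dividing instead by the reads outside peaks gave 13.8% toward ES1 and 1.71% toward ES2.

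Most of the 2-fold differences were found where the counted stretches differ. In 3641 ES3-lacking regions the ES1 and ES2 inner intervals shared at least 50% of both, and 92 of these (2.53%) differed by 2-fold or more in either direction. ES1 was the higher list in 2.33% and ES2 in 0.192%. In 3393 regions the inner intervals shared less, and 838 of them (24.7%) differed by 2-fold. The remaining 337 regions had inner intervals that shared no base, and 65 of those (19.3%) differed by 2-fold. Reads of both lists rose together across the 3641 matched regions, with Spearman's rho = 0.64, but not across the 3393, with rho = -0.10. These values describe regions, which share libraries and the length of the counted stretch.

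**Figure D3:**
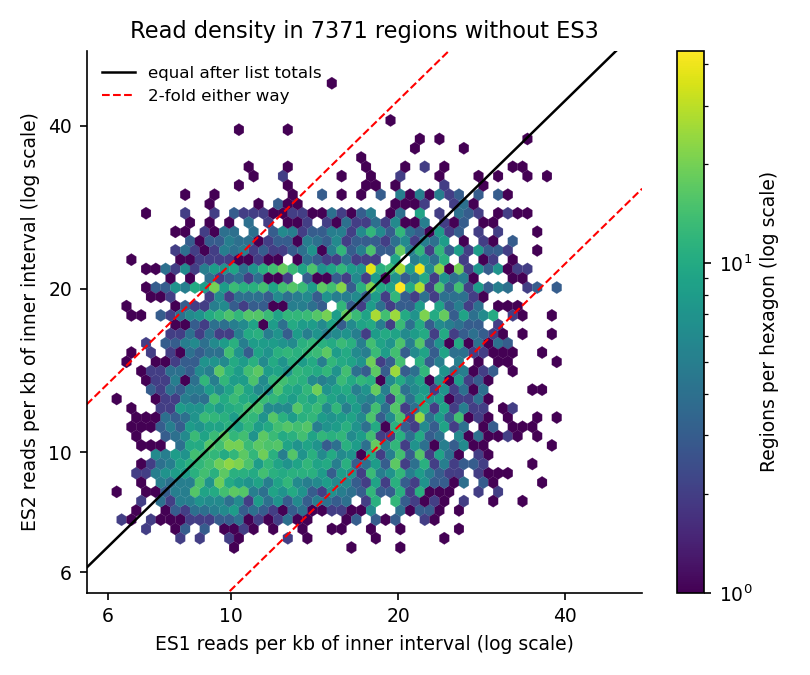
Reads per kb of inner interval in ES1 (x axis) and ES2 (y axis), both on log axes, for the 7371 ES3-lacking regions, with colour for the number of regions per hexagon. The solid line is equal density after division by the list totals and the dashed lines are 2-fold either way. Bands near 20 reads per kb are inner intervals of 500 or 501 bp, which 1380 regions (18.7%) had in ES1 and 1291 (17.5%) in ES2.

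The regions farthest toward one list illustrate this. Among those with at least 30 reads in sum, the ratio leaned most to ES1 at chromosome 14, 27456656 to 27459952. ES1 held 23 reads there (14.6 to 34.5) over 682 bp and ES2 21 (13.0 to 32.1) over 2572 bp, a density 4.60-fold higher in ES1 after division by the totals. Nearly equal numbers of reads over unequal stretches gave that ratio. Chromosome 6, 119868442 to 119870354, also reached 4.60-fold, with 23 reads over 627 bp in ES1 and 17 over 1913 bp in ES2. Chromosome 19, 7006241 to 7009123, reached 4.11-fold. Toward ES2, chromosome 11, 51470636 to 51472700, held 20 reads (12.2 to 30.9) over 501 bp in ES2 and 21 (13.0 to 32.1) over 2011 bp in ES1, 3.43-fold. Chromosome 10, 127088896 to 127092058, and chromosome 18, 75379539 to 75384774, reached 3.27-fold and 3.11-fold. In these 6 regions the inner intervals shared at most 32.8% of the longer one.

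The borders of the ES1 and ES2 peaks coincided only in part. The median ES3-lacking region had 54.6% (interval of the median 53.7 to 55.6) of its covered bases in both lists, against 60.1% (59.4 to 60.9) in regions of all 3 lists. Over all ES3-lacking regions, 9.63 Mb of 19.0 Mb covered by either list was covered by both (50.8%). The ES2 peaks lay wholly inside the ES1 peaks in 1953 regions (26.5%) and the ES1 peaks inside the ES2 peaks in 1354 (18.4%). ES1 was the wider list in 4107 regions (55.7%). At least 90% of the bases were shared in 372 regions (5.05%) and under 10% in 185 (2.51%). The midpoints of both lists differed by a median of 325 bp. With 1 peak in each list required, as in 7169 of the regions (97.3%), the median shared was 55.2%. Requiring that an ES1 and an ES2 peak share at least 50% of both left 4460 regions (60.5%), against 66.7% of regions in all 3 lists.

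ES3 peaks often lay in the neighbourhood of an ES3-lacking region. The median gap to the nearest ES3 peak was 21571 bp (20601 to 22585). Within 10 kb lay 2225 (30.2%, interval 29.1 to 31.2) and within 50 kb 5117 (69.4%, 68.4 to 70.5). Regions in ES1 alone had a median gap of 27998 bp, with 25.8% (24.9 to 26.8) within 10 kb. Regions in ES2 alone had 26334 bp and 26.8% (25.4 to 28.2). At 10 kb the share was thus higher for the ES3-lacking regions than for both, by more than the counting intervals, although their wider span shortens a gap between borders. At 1 kb the order was the other way, with 38 ES3-lacking regions (0.516%, 0.365 to 0.707) against 0.689% (0.524 to 0.890) and 0.770% (0.520 to 1.10), and these intervals overlap. Counting only ES3 peaks with at least 14 reads, the ES3 median, gave a median gap of 41160 bp.

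**Figure D4:**
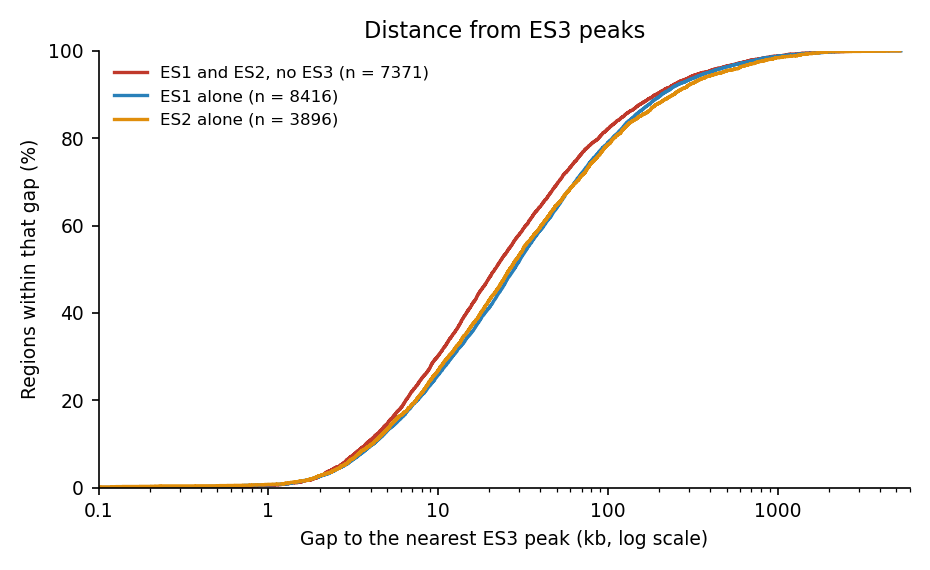
Cumulative share of regions (y axis, percent) by gap to the nearest ES3 peak (x axis, kb, log scale) for ES3-lacking regions and for regions called in ES1 alone or ES2 alone. The line of the ES3-lacking regions lies above both others at 10 kb, at 30.2% against 25.8% and 26.8%.

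Regions near ES3 had slightly more reads than distant ones. The 2225 within 10 kb held medians of 17 reads in ES1 and 16 in ES2 over 1921 bp and 1719 bp. The 1318 regions over 100 kb away held 15 and 14 reads over 1435.5 bp and 1371 bp. At least 30 reads in each list were held by 4.76% of the near and 1.52% of the distant regions.

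The closest region was chromosome 10, 84967979 to 84968986, whose border lay 13 bp from an ES3 peak. It held 9 ES1 reads (4.12 to 17.1) and 15 ES2 reads (8.40 to 24.7). Chromosome 10, 66501266 to 66509485, lay 27 bp from ES3 and held 57 ES1 reads (43.2 to 73.9) and 15 ES2 reads (8.40 to 24.7), the latter over only 556 bp. Chromosome 2, 168015185 to 168018041, lay 65 bp from ES3, with 30 and 12 reads. Such regions count as lacking ES3 only because borders do not touch. The number with no ES3 peak within 10 kb was 5146.

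At the far end, 90 of the 7371 regions lay over 1 Mb from any ES3 peak. So did 106 of 8416 regions in ES1 alone and 63 of 3896 in ES2 alone, so such distances are not particular to the ES3-lacking regions. The farthest was chromosome 14, 112080252 to 112081165, at 5243391 bp, with 10 ES1 reads (4.80 to 18.4) and 11 ES2 reads (5.49 to 19.7). Next came a pair on chromosome 1, 145851086 to 145852123 and 145617202 to 145619100, at 4457798 bp and 4223914 bp. They held 15 and 12 reads in ES1 and 12 and 16 in ES2. These 3 regions held 10 to 15 reads in ES1 and 11 to 16 in ES2, near or below the medians of 16 and 15.

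The regions next to the ES3-lacking regions along a chromosome were of the same kinds as regions in general. Of 14734 immediate neighbours, 36.6% had an ES3 peak, against 36.4% of all union regions. Neighbours with ES1 and ES2 but no ES3 made up 23.7%, against 23.9% of all regions, and neighbours in all 3 lists 26.6% against 26.5%. The ES3-lacking regions were thus interspersed with the other kinds. An ES3 region stood on both sides of 1034 of them (14.0%), on 1 side of 3324 (45.1%) and on neither side of 3013 (40.9%). Another ES3-lacking region lay within 10 kb of 20.5% (19.5 to 21.4), against 29.9% (28.9 to 30.9) for regions of all 3 lists among themselves. The share was 20.6% (19.8 to 21.5) for regions of ES1 alone and 7.91% (7.08 to 8.80) for regions of ES2 alone. In the same order these kinds made up 23.8%, 24.6%, 27.2% and 12.6% of all regions, so these shares are not like for like.

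Of the ES3-lacking regions, 4303 (58.4%) stood alone between regions of other kinds, and 41.6% (40.5 to 42.8) had a neighbour of their own kind. That share was 46.4% for regions of all 3 lists, 48.3% for ES1 alone and 22.0% for ES2 alone, kinds that make up different shares of all regions. Runs of 2 took up 2016 regions, runs of 3 took up 705, with 24 runs of 5, 2 of 6 and 1 of 7. Since 23.7% of immediate neighbours were of this kind, against 23.9% of all regions, these runs are a description and no sign of grouping. Their lengths were not set against those of another order of regions. The longest run had 7 regions on chromosome 11, from 95074828 to 95246493, a stretch of 171666 bp with 148 ES1 and 134 ES2 reads in its inner intervals. It began 2154 bp past a region of ES2 and ES3, chromosome 11, 95071913 to 95072673, and ended 16917 bp before a region of ES1 alone. The 7 regions held 12 to 61 reads in ES1 and 11 to 35 in ES2. The largest of them, 95164187 to 95174527, had 1 ES1 peak of 6580 bp with 61 reads (46.7 to 78.4) and 2 ES2 peaks that summed to 7576 bp with 35 reads (24.4 to 48.7). The next runs, of 6 regions each, lay on chromosome 13, 98049986 to 98136740, and chromosome 17, 25692995 to 25856307.

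**Figure D5:**
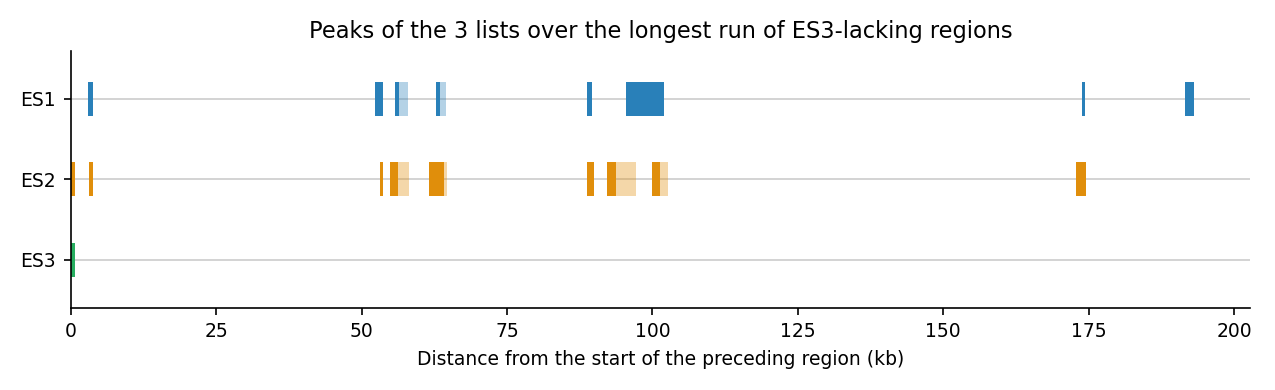
Peaks of ES1, ES2 and ES3 over the longest run of ES3-lacking regions, by distance in kb from the start of the region before it. Boxes are peaks to scale, with the inner interval in full colour and the rest pale. After the ES3 peak at the left edge, 7 regions with ES1 and ES2 peaks follow without ES3, and the ES1 peak at the right is a region of ES1 alone.

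In bins of 1 Mb, 1589 of 2482 bins (64.0%) held at least 1 ES3-lacking region. The fullest, on chromosome 10 from 80000001 to 81000000, held 23 among 80 regions, beside 24 in all 3 lists. On chromosome 4 the bins from 129000001 to 130000000 and from 148000001 to 149000000 held 22 each, among 51 and 69 regions. Beside them were 9 and 17 in all 3 lists. Over all union regions the ES3-lacking share was 23.8%, so a full bin can simply be one with many regions. Counts of both kinds rose together over the 2002 bins with any region, with a Spearman rho of 0.75 and a Pearson r of 0.76. This is a description across bins, which share libraries and differ in how many regions they hold. In 191 bins the ES3-lacking regions, 300 in number, had no ES3 region in their bin. The fullest such bin, on chromosome 7 from 149000001 to 150000000, held 7 of them among 12 regions.

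The ES3-lacking regions were spread over all 19 autosomes, from 233 on chromosome 19 to 553 on chromosome 2. The share of ES1 and ES2 regions without ES3 differed most from the overall 49.2% on chromosome 6, where it was 39.3% (36.3 to 42.5), or 386 of 981 regions. It was also lower on chromosome 7, at 45.7% (42.5 to 48.8). On chromosomes 2 and 10 it was higher, at 53.4% (50.3 to 56.5) and 53.3% (49.9 to 56.8). The intervals of the other 15 chromosomes included the overall share. The intervals are for each chromosome alone and are not adjusted for 19 chromosomes.

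Split by reads, the share on chromosome 6 was 56.8% (50.2 to 63.3) up to 29 reads in ES1 plus ES2, against 67.4% on the other chromosomes. At 30 to 49 reads it was 43.3% (38.5 to 48.1) against 53.3%. With 50 reads or more it was 21.6% (17.2 to 26.49) against 26.54%, just past the upper end of the interval. Other chromosomes also stood apart within a level of reads. They were picked from all chromosomes and levels, and the intervals are not adjusted for their number. On chromosome 11 the share was 61.0% (56.4 to 65.4) at 30 to 49 reads, against 52.0% on the others, and 32.5% (27.6 to 37.7) with 50 reads or more, against 25.6%. With 50 reads or more it was 16.7% (11.3 to 23.3) on chromosome 14 and 17.2% (11.0 to 25.1) on chromosome 16, against 26.5% and 26.4%. Chromosome 2 had 58.2% (53.8 to 62.5) at 30 to 49 reads, against 52.2%, and 32.1% (26.8 to 37.7) with 50 or more, against 25.7%. Chromosome 10 had 76.8% (70.9 to 82.1) up to 29 reads, against 66.2%. Chromosome 7 had 19.7% (15.1 to 25.0) with 50 or more, against 26.6%. At their other levels of reads the intervals of chromosomes 2, 7 and 10 included the share of the others. The ES3-lacking regions of chromosome 6 held medians of 16 reads in ES1 and 16 in ES2. Total ES3 reads on chromosome 6 were 1.03 times those of ES1, and on chromosome 2 1.06 times, against 0.97 on chromosome 7 and 0.98 on chromosome 10. The part of these totals in the shares was not tested.

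Only 20 regions were left out by the limit on width. The widest peaks just inside the limit were 9901 bp (chromosome 4, 106606145 to 106616045), 9784 bp (chromosome 2, 157212474 to 157223776) and 9782 bp (chromosome 15, 102234359 to 102244837). Their ES1 reads were 59, 92 and 22, and their ES2 reads 9, 90 and 24. Just outside were peaks of 10059 bp (chromosome 4, 106253575 to 106263633), 10238 bp (chromosome 10, 128191406 to 128201643) and 10296 bp (chromosome 19, 12076960 to 12087298). Their ES1 reads were 20, 77 and 13, and their ES2 reads 12, 21 and 12. The numbers of reads on either side of the limit overlap.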

How the data were processed

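The data were 3 peak lists of the whole series on mm9. Reads were aligned with Bowtie, per the submitters' processing notes. Neither the version, the peak caller nor a duplicate filter is stated in these sources. The authors deposited a start, an end, an inner interval and a score per peak. The score times the inner length was a whole multiple of 1 unit per chromosome and list for all 60226 peaks (tolerance 0.001), and the multiple was taken as reads, which is an assumption. Each unit fitted a whole chromosome length on 20 of 20 chromosomes. These lengths lay 1799 to 524171 bp past the last peak, and gave the list totals. Recovery, merging, gaps and shared bases were tested on simulated lists with known answers.

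Intervals are exact binomial, exact Poisson, or binomial order statistics for medians, at 95%. Gaps and widths are in bp between borders, with starts counted from 1. Python 3.11.15, pandas 2.3.3 and scipy 1.17.1 were used. The regions and lists were chosen with earlier results of these data known. Regions named in the text are the 5 widest, the 5 with most reads, the 5 with the highest lower score, the 3 farthest toward ES1 and toward ES2, the 3 closest to and farthest from ES3, the longest runs, and 3 on each side of the width limit. The set with at least 50 reads in each list, the bins named and the chromosomes singled out were chosen after their values were seen. The gene and promoter tables at hand are of another build, so genes and sequences were not analysed here. Chromosome X was left out by the rule.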

Additional observations from a re-analysis of the deposited data

How the results depend on the processing

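The count of 7371 regions was 7382 with peaks within 1 kb merged, 7391 with no limit on width, 6861 with a limit of 5000 bp and 5146 with no ES3 peak within 10 kb. It moved by over 1.5 times to 4460 when an ES1 and an ES2 peak had to share at least 50% of both. With ES1 and ES2 shortened to the length of ES3 it also moved by over 1.5 times, to 2388 by score and 2283 by reads. Those were 10.1% of 23597 and 11.0% of 20741 union regions, against 23.8% with the lists as deposited. With 1 peak in each list the median widths were 1639 bp in ES1 and 1538 bp in ES2. Where the inner interval is the whole peak, the median was 18 reads in ES1. Dividing by the reads outside peaks moved the median log2 ratio of ES2 to ES1 to -0.32, the share past 2-fold toward ES1 to 13.8% and toward ES2 to 1.71%. With inner intervals that share at least 50% of both, these shares were 2.33% and 0.192%. The median gap to ES3 was 41160 bp for ES3 peaks with at least the median reads, and 59.2% of regions had another within 50 kb. The 2 rules on inner intervals were added after the data were seen. Of 34 values under an alternative, 21 stayed within their interval or 1.5 times the main count. The alternative for promoters was not run. No paired analysis was possible because no list has a replicate number and the results come from no test. What a missing ES3 peak means is limited by the depth of the lists and by the unknown peak caller, and no ES3 level is known there. ES3 rested on about as many reads as ES1, with a lower share of them in peaks (8.86% against 22.9%).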
